A study of Mus musculus with 18 samples.

Results

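CpG-poor promoter peaks were defined as open-chromatin regions of the promoter table that were under 4000 bp wide, held an annotated transcription start site (TSS) and had a CpG observed/expected ratio under 0.35 in the mm9 sequence of the peak. The ratio is the number of CpG dinucleotides times the length, divided by the number of C times the number of G. The rule took 6396 of the 36670 peaks of the promoter table (17.4%), or 36.3% of the 17610 peaks that were under 4000 bp wide and held a TSS, and it used no measured accessibility beyond the presence of a peak. The series held 194284 peaks in all, and 6394 of the CpG-poor promoter peaks passed the filter on low counts. At the edge of the rule, the peak at Lefty1 had a ratio of 0.34993 and was taken, and the peak at Sub1 had 0.35007 and was not. There were 158 peaks within 0.01 under the limit and 168 within 0.01 over it.

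Most vertebrate promoters lie in CpG islands, stretches rich in CpG that are held open by nucleosome-poor chromatin in nearly every cell type. CpG-poor promoters lack such a stretch. They tend to depend on the transcription factors of a given cell type or signal for opening, and they are common at genes of immune responses and of specialised cell functions. Lipopolysaccharide (LPS), the outer membrane component of Gram-negative bacteria, acts on macrophages through TLR4 and turns on NF-κB, AP-1 and, by way of secreted type I interferon, the STAT and IRF factors that bind interferon-stimulated response elements (ISRE). The compound (+)-JQ1 displaces the bromodomain and extra-terminal (BET) proteins from acetylated histones, and interleukin-10 (IL-10) restrains inflammatory gene expression through STAT3.

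ATAC-seq, which counts insertions of a transposase into open DNA, was run on bone marrow-derived macrophages (BMDMs) from 3 male Il10-/- mice of the C57BL/6J background, 12 weeks of age per the methods of the study, after 6 days in medium conditioned by L929 cells. Mature cells were left untreated or were given 500 nM (+)-JQ1 or 10 ng/mL IL-10 for 12 hours, and then 50 ng/mL LPS or PBS for a further 4 hours, which made 6 groups of 3 libraries: unstimulated, JQ1, IL-10, LPS, LPS + JQ1 and LPS + IL-10. All groups carried the Il10 deletion. Library totals over all peaks ran from 12020526 to 25908198 counts. Levels are given as counts scaled to a common library size (CPM), with library sizes adjusted by the trimmed mean of M-values, and a peak is called higher or lower where edgeR's quasi-likelihood test gave a Benjamini-Hochberg adjusted p under 0.05 over the 194230 peaks tested and a log2 fold change beyond 0.5 in size. The comparisons share libraries (LPS stands in 3 of them, unstimulated in 3), so their calls are not independent of each other.

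The sequences just upstream of 6 of these promoters show what such regions look like. Each is 250 bases ending at the base before the TSS, from mm9, written 5′ to 3′ along the gene. Ccl5 encodes a chemokine for T cells and monocytes at chr11:83344016-83344265 (minus strand), Isg15 an ubiquitin-like interferon-induced protein at chr4:155574928-155575177 (minus strand), Ifit3 an antiviral interferon-induced protein at chr19:34657771-34658020 (plus strand) and Cxcl10 a chemokine induced by interferon at chr5:92777916-92778165 (minus strand). These 4 are shown because their peaks rose with LPS, and capitals mark the letters of the ISRE (GAAANNGAA), κB (GGGNNTTCC or GGANTTTCC) and TATA-box searches, the last for TATAAA. Saa3 at chr7:53971047-53971296 (minus strand) and Saa1 at chr7:53998351-53998600 (minus strand) encode serum amyloid A proteins of the acute phase. They are shown because their peaks rose with LPS + IL-10 over LPS, and capitals mark the C/EBP letters (TTGCNNAA).
Ccl5: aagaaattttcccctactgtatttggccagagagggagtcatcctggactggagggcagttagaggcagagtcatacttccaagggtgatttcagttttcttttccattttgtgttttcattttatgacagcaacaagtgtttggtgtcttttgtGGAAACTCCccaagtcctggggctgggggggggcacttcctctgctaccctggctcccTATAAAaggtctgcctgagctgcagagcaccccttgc
Isg15: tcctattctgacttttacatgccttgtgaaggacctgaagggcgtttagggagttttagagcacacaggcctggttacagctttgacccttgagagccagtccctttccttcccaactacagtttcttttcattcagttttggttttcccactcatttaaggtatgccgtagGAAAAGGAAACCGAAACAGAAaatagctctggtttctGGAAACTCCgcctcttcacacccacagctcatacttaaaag
Ifit3: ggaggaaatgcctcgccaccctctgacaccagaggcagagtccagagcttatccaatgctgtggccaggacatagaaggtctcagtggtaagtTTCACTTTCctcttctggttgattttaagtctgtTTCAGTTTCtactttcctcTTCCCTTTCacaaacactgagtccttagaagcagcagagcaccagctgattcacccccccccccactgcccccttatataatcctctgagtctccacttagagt
Cxcl10: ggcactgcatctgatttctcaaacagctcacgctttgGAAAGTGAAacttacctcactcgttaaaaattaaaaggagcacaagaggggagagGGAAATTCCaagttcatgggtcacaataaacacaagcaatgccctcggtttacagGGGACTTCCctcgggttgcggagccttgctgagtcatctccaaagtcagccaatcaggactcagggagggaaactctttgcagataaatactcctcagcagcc
Saa3: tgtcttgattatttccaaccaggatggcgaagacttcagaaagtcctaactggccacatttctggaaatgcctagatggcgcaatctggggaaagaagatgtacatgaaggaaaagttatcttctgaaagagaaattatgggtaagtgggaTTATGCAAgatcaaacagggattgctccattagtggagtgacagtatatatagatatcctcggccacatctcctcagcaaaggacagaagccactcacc
Saa1: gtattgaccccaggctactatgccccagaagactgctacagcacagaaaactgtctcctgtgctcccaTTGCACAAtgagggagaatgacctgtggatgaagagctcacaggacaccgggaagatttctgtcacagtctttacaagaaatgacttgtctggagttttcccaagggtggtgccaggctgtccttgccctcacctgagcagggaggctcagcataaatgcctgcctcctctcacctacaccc

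The Ccl5 sequence held TATAAA from 37 bases before the TSS and a κB match from 95 bases before it. Isg15 held 3 overlapping ISRE matches, which began 78, 72 and 66 bases before the TSS, and a κB match that began 41 bases before it. Ifit3 held 3 ISRE matches, starting 157, 123 and 104 bases before the TSS. Cxcl10 held 1 ISRE match 213 bases before the TSS and κB matches 158 and 103 bases before it. The C/EBP match lay 99 bases before the TSS of Saa3 and 182 bases before that of Saa1. A match is a run of letters and not a measured binding site.

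CpG-poor promoter peaks were weak. Their median level over the 18 libraries was 3.42 CPM, or 1.94 CPM per kb, against 30.5 CPM and 28.98 CPM per kb at the 7332 CpG-rich promoter peaks (ratio of 0.6 or more) and 6.29 CPM per kb at the 3882 intermediate ones. Per length they stood nearer to the 141896 CpG-poor peaks away from promoters, with 1.52 CPM per kb. They were wider than CpG-rich promoter peaks (median 1434 against 1041 bp), had less G and C (49.04% against 62.04%) and held a median of 18 CpGs against 82, and 15 of them held none. The class was also uneven: its middle members, from the 10th to the 90th percentile, spanned 1.18 to 7.92 CPM per kb. The strongest by mean level was at Tcirg1, a subunit of the vacuolar proton pump, with 60.8 CPM, followed by Glipr1 with 57.9 CPM and Rsu1 with 54.4 CPM.

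A protein-coding TSS lay in 5168 of the CpG-poor promoter peaks (80.8%), and 1228 held only TSSs of other kinds, among them 386 of processed transcripts, 236 of pseudogenes, 158 of small nucleolar RNAs, 131 of lincRNAs and 105 of microRNAs. Only 1706 of the 5168 (33.0%) held the start of a protein-coding gene that lay farthest 5′, against 6235 of 7148 (87.2%) at CpG-rich promoter peaks. The other CpG-poor peaks lay at starts annotated inside a gene or at shorter transcripts, so that a peak named here for a gene is often not at its first promoter, and the distance from the 5′-most start is given for most of those described. No transcript levels were used here, so whether these later starts were in use was not tested.

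With the scaling used here, computed over all peaks, most of them CpG-poor and away from promoters, the median CpG-poor promoter peak stood between 3.08 and 3.54 CPM in every library. The median CpG-rich promoter peak ran from 18.8 to 41.2 CPM, with its values in the unstimulated libraries at 18.8, 22.8 and 28.7 CPM. A fold change against the unstimulated group therefore rests on libraries in which CpG-rich promoters were low, and the scaling of the libraries moves the balance of calls, as given with the counts. With libraries scaled by total counts, the median log2 fold change over all tested peaks was -0.26 for LPS, -0.37 for JQ1 and -0.26 for IL-10, against -0.03, -0.08 and -0.05 in the fit reported. The flat median of the CpG-poor promoter peaks depended on that choice. Their own median log2 fold changes, -0.03, -0.04 and -0.00651 in the fit reported, became -0.26, -0.32 and -0.21 with total counts and -0.20, -0.33 and -0.18 when only promoter-table peaks set the scaling.

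**Figure D1:**
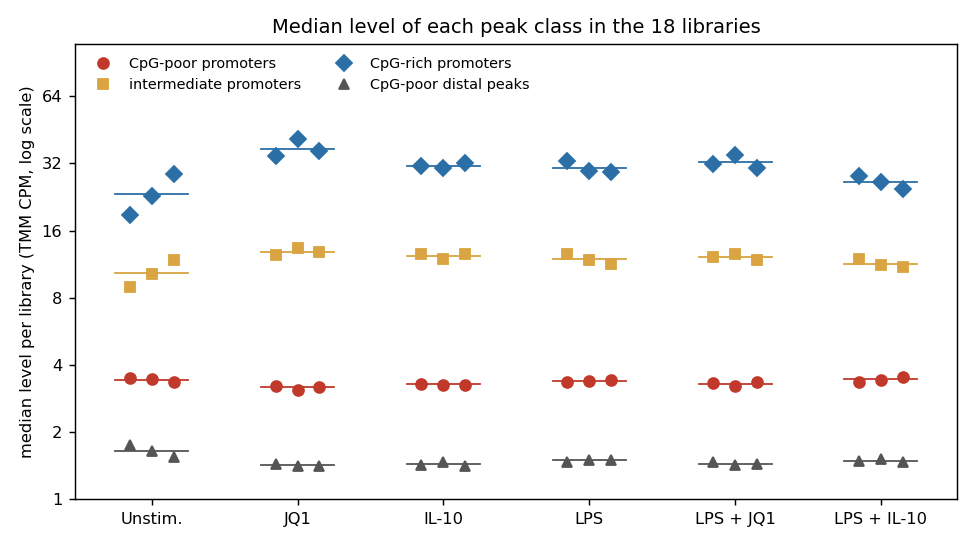
Median level in CPM (log axis) of CpG-poor, intermediate and CpG-rich promoter peaks and of CpG-poor distal peaks, with a point for each of the 18 libraries and a line at the mean of the 3 libraries of a group. With this scaling the CpG-poor promoter medians lie between 3.08 and 3.54 CPM, and the CpG-rich medians range from 18.8 to 41.2 CPM, and the flatness of the former depends on the scaling.

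LPS moved CpG-poor promoter peaks in both directions. It raised 896 of the 6394 tested (14.01%, against a background of 11.7% of all peaks tested) and lowered 665 (10.4%, background 10.2%), so that 57.4% of its calls were higher. At CpG-rich promoter peaks LPS raised 1590 and lowered 58, with 96.5% of the calls higher. That balance was not kept in treated cells, where LPS raised 35 and lowered 155 CpG-rich promoter peaks with JQ1. With IL-10 it raised 35 and lowered 451. CpG-poor distal peaks also moved both ways with LPS, 15254 higher (10.8%) and 15958 lower (11.2%). Large changes were found on both sides at CpG-poor promoter peaks, as they were over all peaks. Of the 6394, 350 were called above 1 and 242 below -1 on the log2 scale, around a median log2 fold change of -0.03. Of all 194230 peaks tested, 10124 were called above 1 and 10849 below -1. The split of 896 higher and 665 lower became 532 and 1394 with total-count scaling, and 610 and 1196 when only promoter-table peaks set the scaling. The difference between the classes was not tested.

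The calls varied with the level of the member. From the lowest to the highest quartile of mean level, LPS raised 3.06%, 8.26%, 15.8% and 28.96% of the members, and lowered 10.6%, 12.2%, 12.9% and 5.94%. The median log2 fold change ran over the same quartiles from -0.26 to 0.23 with LPS, from -0.29 to 0.37 with JQ1 alone and from -0.31 to 0.32 with IL-10 alone, so that this tilt was found in every comparison with the unstimulated libraries. In treated cells the share lowered by LPS also climbed with level, from 0.938% to 8.26% with JQ1 and from 2.75% to 10.2% with IL-10. More counts give the test more power in the higher quartiles, and the mean level includes the LPS libraries, so that a rise itself lifts a peak's quartile; the part of each was not tested. Members at the 5′-most start of a protein-coding gene were called higher in 19.6% of cases and lower in 10.1%, those at a later start in 11.2% and 10.8%, and those with no protein-coding TSS in 14.3% and 9.85%. The median level of these 3 sets was 5.32, 3.03 and 2.94 CPM.

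**Figure D2:**
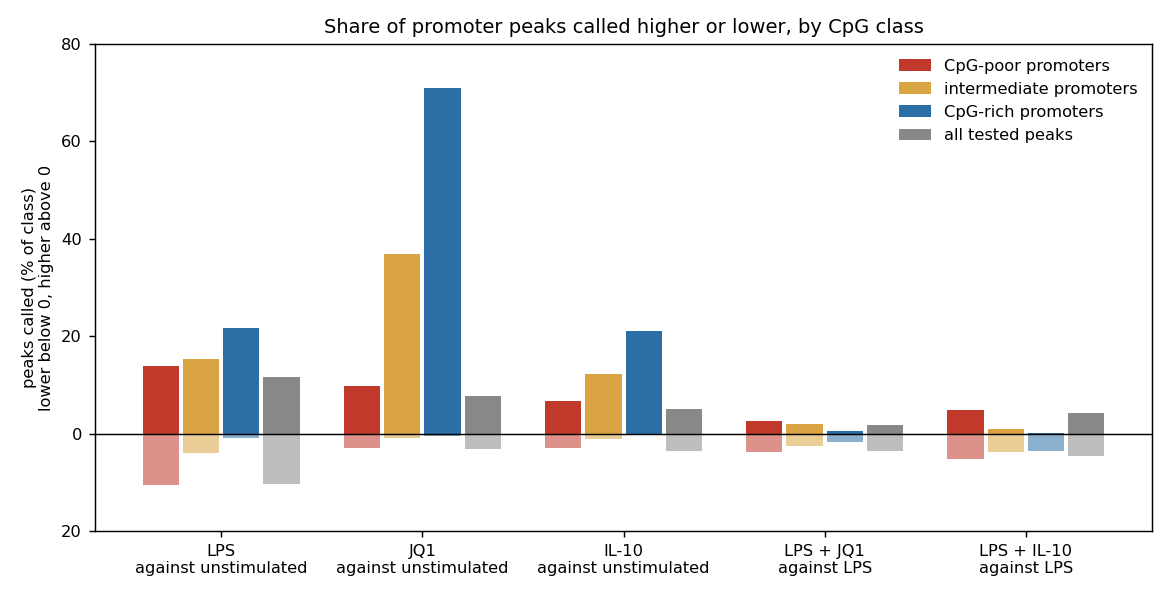
Percent of tested peaks called higher (bars above 0) and lower (paler bars below 0) in each of 5 comparisons, for CpG-poor, intermediate and CpG-rich promoter peaks and for all tested peaks. With LPS, 14.01% of CpG-poor promoter peaks were higher and 10.4% lower, against 21.7% and 0.791% of CpG-rich ones.

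Peaks are named here from those at protein-coding genes that were called with a mean of at least 50 counts and moved the same way in all 3 same-numbered pairs of libraries, and "largest" refers to these. The largest rise with LPS was at Ccl5. The Ccl5 peak (chr11:83343409-83344339) stood at 1.87, 1.21 and 0.877 CPM in the 3 unstimulated libraries and at 42.5, 35.01 and 39.2 CPM in the 3 LPS libraries. The groups stood far apart, with no overlap (log2 fold change 4.91, SE 0.20, adjusted p 6.1e-40). Il1b, which encodes the pyrogenic cytokine interleukin-1β, had a pair of CpG-poor peaks. The one at its 5′-most start (chr2:129194400-129197486) went from 5.69, 5.60 and 5.81 to 39.2, 37.6 and 29.5 CPM (log2 fold change 2.64, SE 0.15, adjusted p 8.1e-29), and the one 3788 bases into the gene (chr2:129192232-129193242) from 1.61, 1.21 and 1.04 to 12.96, 12.6 and 11.9 CPM (log2 fold change 3.29, SE 0.25, adjusted p 1e-21). All 3 LPS libraries were above all 3 unstimulated ones at both peaks.

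Several interferon-induced genes had rises of similar size. The Isg15 peak (chr4:155574357-155575798), whose overlapping ISRE matches are printed above, went from 5.49, 6.43 and 8.88 CPM to 42.9, 39.6 and 51.01 CPM (log2 fold change 2.67, SE 0.15, adjusted p 8e-29). Rnf213, a very large interferon-inducible ubiquitin ligase, had a peak 84957 bases from its 5′-most start that went from 0.870, 1.43 and 0.767 to 9.23, 11.3 and 10.9 CPM (log2 fold change 3.34). The groups did not overlap at either. Ifi205, of the PYHIN family of nucleic acid-binding proteins, rose by 2.84 on the log2 scale, and Gbp6, a guanylate-binding GTPase of cell-autonomous defence, by 2.69. Serpina3f, a serine protease inhibitor, rose by 2.70, and the organic anion transporter gene Slco3a1 by 2.89 at a peak 24671 bases from its 5′-most start. For these 4 as well, every LPS library was above every unstimulated library.

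The largest fall with LPS among these peaks was inside a gene. A peak 75466 bases into Stard9, which encodes a kinesin with a lipid-binding START domain, fell from 6.49, 7.20 and 9.21 to 2.21, 1.40 and 2.81 CPM (log2 fold change -1.85, SE 0.21, adjusted p 3.2e-12). At Ctsa, the gene of the lysosomal protease cathepsin A, a peak 4309 bases from the 5′-most start (chr2:164660841-164664287) fell from 14.4, 17.3 and 22.03 to 5.83, 5.74 and 5.32 CPM (log2 fold change -1.67, SE 0.15, adjusted p 1.7e-16). The highest LPS library was below the lowest unstimulated one at both. A pair of neighbouring peaks 75319 and 77121 bases into Pnpla7, a lysophospholipase gene, fell by 1.64 and 1.34 on the log2 scale. The peak at Nt5dc2 had a log2 fold change of -1.58, that at the protein kinase gene Srpk3 -1.48, that at Pdxdc1 -1.22 and that at Mef2d, a MADS-box transcription factor gene, -1.19. None of these peaks had overlapping groups.

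**Figure D3:**
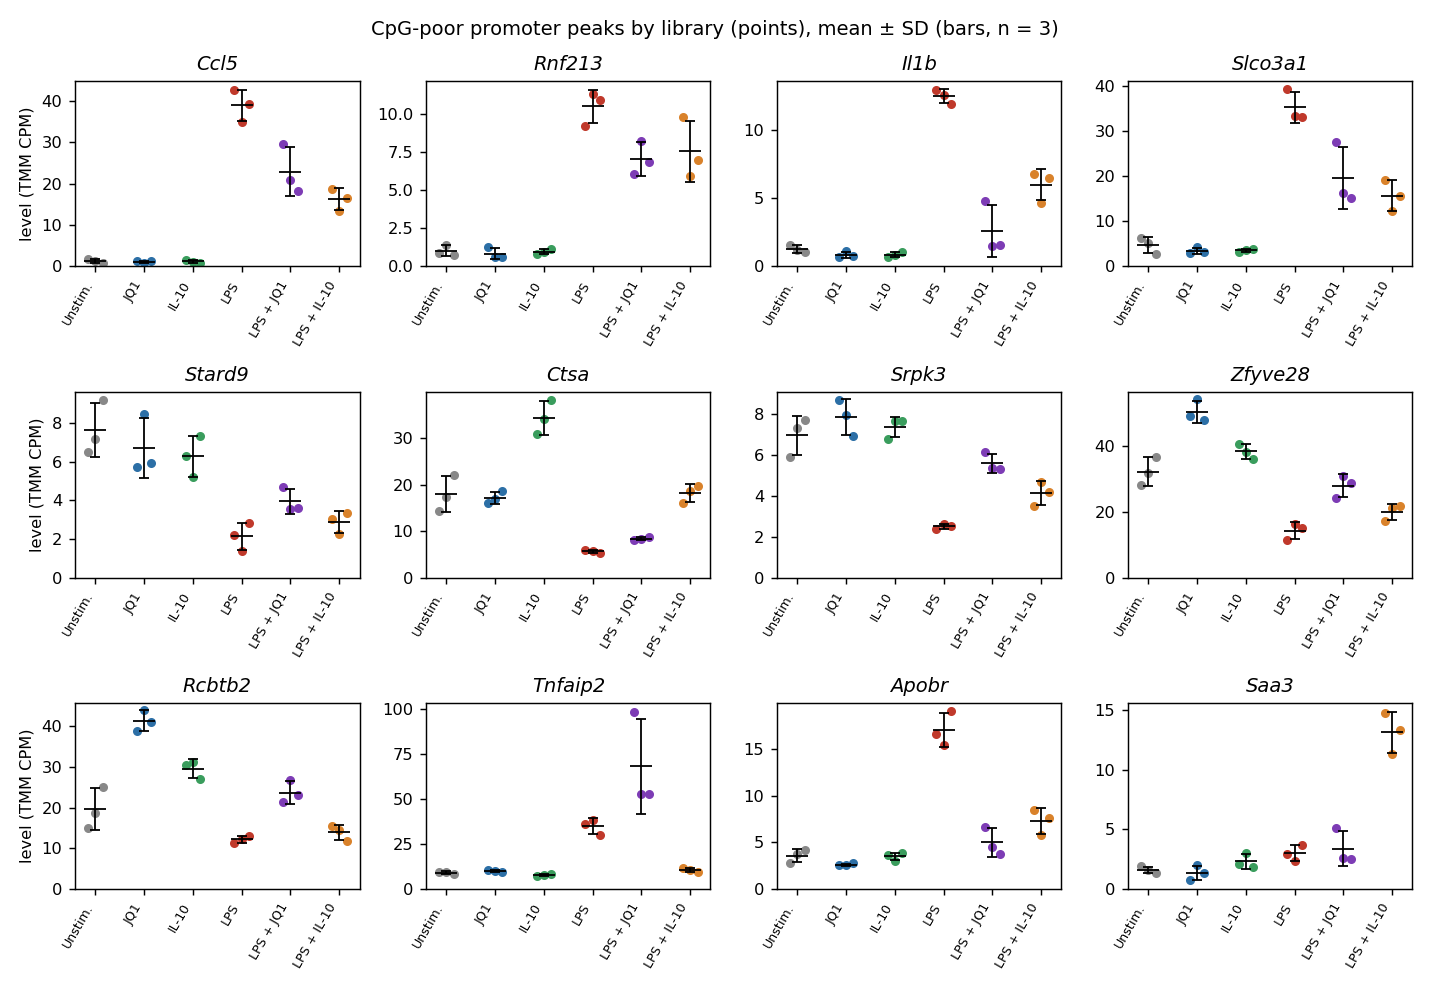
Level in CPM (linear axis from 0, own scale per gene) at 12 CpG-poor promoter peaks, with a point for each of the 3 libraries of the 6 groups and bars for the mean ± SD. Ccl5, Rnf213 and Il1b (the peak inside the gene) are far higher in all LPS libraries than in the unstimulated ones, Stard9, Ctsa and Srpk3 are lower, and Tnfaip2 is highest with LPS + JQ1 and back near the unstimulated level with LPS + IL-10.

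Gene lists of macrophage biology gave the breadth of the response. Of a list of 60 interferon-stimulated genes, 42 had a CpG-poor promoter peak, 51 peaks in all. LPS raised 43 (background 11.7%) and lowered 0 (background 10.2%) of them. The log2 fold changes ran from -0.55 to 2.84 with a median of 1.48, where the median of all tested peaks was -0.03. The largest, with the log2 fold change in parentheses, were Ifi205 (2.84), Gbp6 (2.69), Isg15 (2.67), Tgtp2, an immunity-related GTPase (2.61), Ifit3 (2.41) and Gbp10, a guanylate-binding GTPase (2.28). Ifit3 went from 3.01, 5.38 and 4.16 to 24.7, 21.6 and 21.4 CPM and Tgtp2 from 0.669, 1.10 and 1.21 to 5.38, 6.09 and 7.11 CPM. Both sets of LPS libraries lay wholly above the unstimulated ones.

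Of 55 cytokine and chemokine genes 31 were at such peaks, and 23 of the 33 peaks rose and 2 fell, over a range of -0.58 to 4.91 with a median of 1.03. The largest, with the distance to the 5′-most start where it was over 1000 bases, were Ccl5 (4.91), Il1b (3.29, 3788 bases in), Cxcl11, a ligand of CXCR3 (2.66, 2208 bases in), Il1b (2.64), Il27, a cytokine of the IL-12 family (2.45) and Cxcl10, a ligand of CXCR3 (2.33). The 2 falls, named after their values were seen, were at the chemokine genes Ccl6 (-0.58) and Pf4 (-0.56).

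The other lists moved less, and the parentheses hold the log2 fold changes of up to 6 called peaks of each. Of all peaks tested, LPS raised 11.7% and lowered 10.2%. Pattern recognition and inflammasome genes had 11 higher and 0 lower of 37 peaks, with Fpr1, a formyl peptide receptor (1.32), Tlr7, a sensor of single-stranded RNA (0.94), Casp4, the sensor of cytosolic LPS (0.89), Aim2, a sensor of cytosolic DNA (0.81, 104609 bases in), Nlrp3, an inflammasome sensor (0.80, 1188 bases in) and Fpr2/Fpr3, formyl peptide receptors (0.72). Cytokine receptor and signalling genes had 10 higher and 1 lower of 39, with Tnfaip2 (1.96, 8050 bases in), Stat3, the STAT activated by the IL-10 receptor (1.72, 34129 bases in), Il2rg, the common γ chain (1.51), Batf2, an AP-1 family factor (1.5, 23477 bases in), Tnfaip3, the NF-κB inhibitor A20 (1.44, 6812 bases in) and Tnfaip3 (1.37, 3694 bases in). MHC class II presentation genes had 5 higher and 0 lower of 14, with Cd74, the invariant chain (1.46), H2-Ob (0.93, 1133 bases in), H2-Eb1, a class II β chain (0.91), H2-Aa, a class II α chain (0.89) and H2-Oa (0.72). Adhesion and chemotactic receptor genes had 9 higher and 2 lower of 26, with Cd69, an activation marker (2.0), Itgad, integrin αD (-1.49, 19579 bases in), Vcam1, an adhesion molecule (1.42), Itgal, integrin αL (1.09), Ccr1, a chemokine receptor (1.01) and Gpr84, a receptor for medium-chain fatty acids (0.96). Immunoglobulin-like and Fc receptor genes had 13 higher and 3 lower of 37, with Siglech, a sialic acid-binding lectin (-1.55), Slamf8 (1.49), Pilra, an inhibitory receptor (1.42), Mpeg1, a pore-forming protein (0.92), Pilrb1, an activating receptor (0.87) and Cd52 (0.84). Effector enzyme and secreted protein genes had 18 higher and 7 lower of 55, with Serpinb2, plasminogen activator inhibitor 2 (1.80), Chi3l3, a chitinase-like protein (-1.64, 58881 bases in), Chi3l1, a chitinase-like protein (1.63, 6950 bases in), Cybb, the catalytic subunit of the phagocyte NADPH oxidase (1.62, 18447 bases in), Ptges, a prostaglandin E synthase (1.54, 28075 bases in) and Ctsc, cathepsin C (1.46, 18767 bases in). Each of these 6 lists had more rises than falls with LPS, except that total-count scaling left the immunoglobulin-like and Fc receptor list with 5 of each. Where a list had 0 peaks called lower with LPS, edgeR at an unadjusted p under 0.05 counted 0 lower in the interferon-stimulated, 1 in the pattern recognition and 0 in the MHC class II list, and DESeq2 called 0, 0 and 0.

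**Figure D4:**
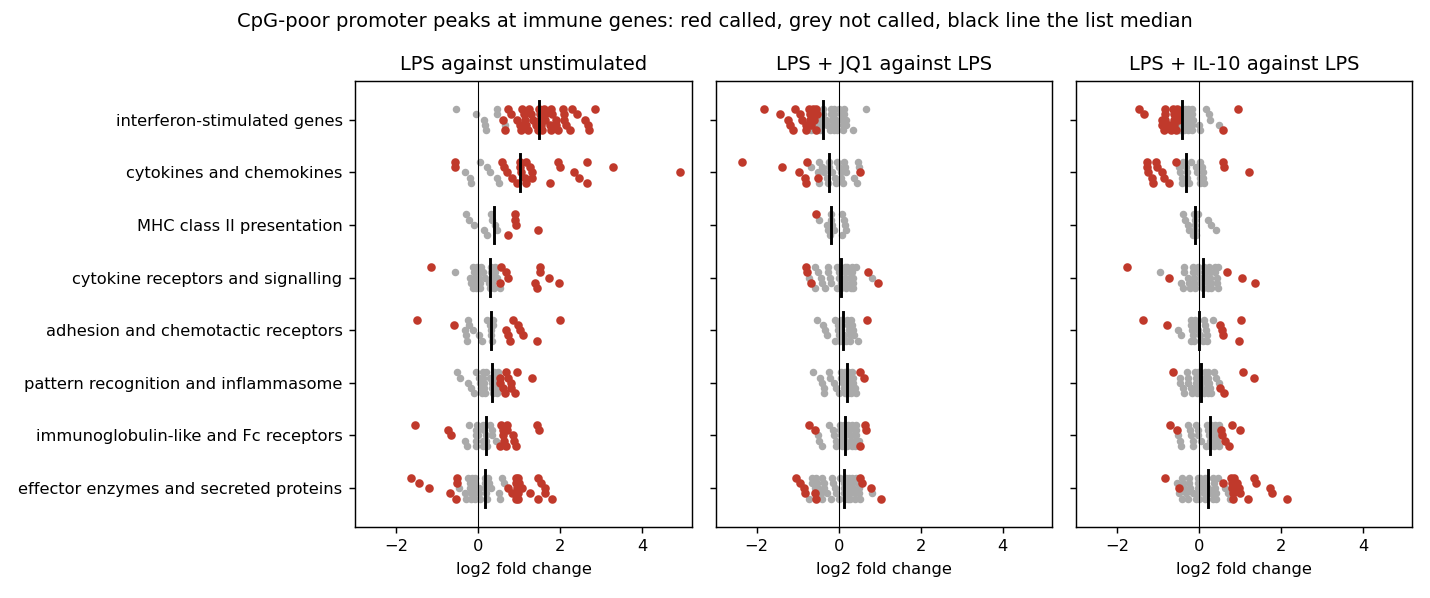
Log2 fold change of each tested CpG-poor promoter peak of 8 gene lists with LPS, with LPS + JQ1 against LPS and with LPS + IL-10 against LPS, in red where called and in grey where not, with a black line at the list median. With LPS 43 of 51 interferon-stimulated peaks are called and lie to the right of 0.

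Against LPS alone, LPS + JQ1 lowered some peaks that LPS had raised and raised some that had fallen, but how many was not counted. The LPS libraries stand on opposite sides of these comparisons, so that their own deviations can look like a return. LPS + JQ1 lowered 242 of the CpG-poor promoter peaks (3.78%, background 3.49%) and raised 171 (2.67%, background 1.74%), while 119 CpG-rich promoter peaks were lower and 44 higher. The Il1b peak inside the gene had the largest fall of those that qualified for naming, with LPS libraries at 12.96, 12.6 and 11.9 CPM and LPS + JQ1 libraries at 4.84, 1.47 and 1.59 CPM (log2 fold change -2.36, SE 0.22, adjusted p 9.6e-15). The LPS + JQ1 libraries were all lower, the first of them less so than the others. At its 5′-most start the fall was 1.38 on the log2 scale, to 16.4, 11.2 and 13.5 CPM. Apobr, the gene of a receptor for apolipoprotein B particles, changed from 16.7, 15.5 and 19.1 to 6.68, 4.48 and 3.76 CPM (-1.82), at a start 2732 bases into the gene.

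Oas2, a 2′-5′ oligoadenylate synthetase of antiviral defence, had a pair of CpG-poor peaks. At the start 14278 bases into the gene (chr5:121183893-121186891), LPS libraries stood at 7.12, 7.59 and 7.23 CPM and LPS + JQ1 libraries at 1.92, 2.18 and 2.09 CPM (log2 fold change -1.81, SE 0.21, adjusted p 9.9e-11), below the unstimulated libraries at 4.55, 2.86 and 2.85 CPM. At the 5′ start the log2 fold change was -0.79. Tmem27, which encodes the kidney and pancreas protein collectrin, fell by 1.75 and Serpina3g, a protease inhibitor gene, by 1.69 on the log2 scale. The LPS and LPS + JQ1 libraries did not overlap at any of these peaks.

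Among the rises with LPS + JQ1 over LPS, the peak 8050 bases into Tnfaip2, a gene induced by tumour necrosis factor (chr12:112688277-112692115), went up where JQ1 and LPS were combined and not with JQ1 alone. It stood at 9.37, 9.51 and 8.11 CPM in unstimulated, 36.1, 38.5 and 30.2 CPM in LPS and 98.8, 52.9 and 53.01 CPM in LPS + JQ1 libraries (log2 fold change 0.96, SE 0.14, adjusted p 2.9e-07), and JQ1 alone gave a log2 fold change of 0.16 that was not called. The groups did not overlap, but the first LPS + JQ1 library was far above the others. Srpk3 (1.14) and Stard9 (0.88), which had fallen with LPS, were higher with LPS + JQ1. The Srpk3 peak stood at 5.89, 7.31 and 7.73 CPM in unstimulated, 2.39, 2.65 and 2.51 CPM in LPS and 6.14, 5.35 and 5.31 CPM in LPS + JQ1 libraries. Zfyve28, a gene with a phosphoinositide-binding FYVE domain, was higher by 0.98 and Rcbtb2 by 0.97.

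By list, LPS + JQ1 lowered 20 of the 51 interferon-stimulated peaks (background 3.49%) and raised 0 (background 1.74%). Their median was -0.39, against -0.00305 over all peaks tested. The largest differences on the log2 scale were at Oas2 (-1.81, 14278 bases in), Oasl2, an oligoadenylate synthetase-like antiviral protein (-1.44, 7496 bases in), Oas1g, an oligoadenylate synthetase (-1.23, 8010 bases in), Iigp1, an immunity-related GTPase (-1.19), Gbp10 (-1.11) and Ifi44 (-1.07). Among cytokines and chemokines 7 were lower and 1 higher of 33 (median -0.22), with Il1b (-2.36, 3788 bases in), Il1b (-1.38), Csf1, the macrophage growth factor (-0.97, 9728 bases in), Il27 (-0.83), Ccl22, a ligand of CCR4 (-0.80) and Ccl5 (-0.78). At Ccl5 the LPS + JQ1 libraries, at 29.5, 20.9 and 18.1 CPM, stood below the LPS libraries and far above the unstimulated ones. Effector and secreted protein genes had 4 higher and 6 lower of 55, with Cfb, complement factor B (-1.03), Alox5, 5-lipoxygenase (1.03, 48386 bases in), Ctsc (-0.93, 18767 bases in), Ptges (-0.82, 28075 bases in) and Mgst1, a microsomal glutathione transferase (0.79, 1054 bases in). This list had more falls than rises but a median log2 fold change of 0.13, and DESeq2 called 5 higher and 4 lower.

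The receptor lists had few calls with LPS + JQ1 against LPS, where 1.74% of all peaks tested were higher and 3.49% lower. Pattern recognition genes had 2 higher and 0 lower of 37, at Trem1, an amplifier of inflammatory signals (0.61) and Tlr4, the LPS receptor (0.52). Cytokine receptor and signalling genes had 2 higher and 3 lower of 39, at Tnfaip2 (0.96, 8050 bases in), Stat3 (-0.80, 34129 bases in), Stat4, the STAT of IL-12 signalling (-0.77, 21096 bases in), Ptpn6, the phosphatase SHP-1 (0.71) and Csf3r, the G-CSF receptor (-0.67, 13534 bases in). Immunoglobulin-like and Fc receptor genes had 3 higher and 2 lower of 37, at Cd86, a co-stimulatory ligand (-0.73, 23276 bases in), Cd300a, an inhibitory receptor (0.67), Cd300lb (0.63), Fcgr2b, the inhibitory Fc receptor (-0.58, 14917 bases in) and Fcgr3, an activating Fc receptor (0.52, 5532 bases in). The MHC class II list had 1 call, H2-Aa (-0.54), and the adhesion list 1, Emr4, an adhesion G protein-coupled receptor (0.70). With so few calls the balance was unsteady. Scaling set by promoter-table peaks gave 2 higher and 4 lower in the immunoglobulin-like list and 1 of each in the adhesion list, and DESeq2 gave 2 of each in the cytokine receptor list. Against the 0 calls, an unadjusted p under 0.05 in edgeR was reached by 2 higher interferon-stimulated and 5 lower pattern recognition peaks, and DESeq2 called 0 and 0.

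LPS + IL-10 against LPS split the CpG-poor promoter peaks nearly evenly. It raised 310 (4.85%, background 4.26%) and lowered 324 (5.07%, background 4.51%). CpG-rich promoter peaks had 8 higher and 251 lower. With total-count scaling the CpG-poor split was 409 higher and 246 lower, and with scaling set by promoter-table peaks 457 and 244.

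The 5 largest rises with LPS + IL-10 over LPS were at the acute-phase genes Saa3, Saa1 and Hp and at Ctsa and Plac1l. Saa3 stood at 2.94, 2.35 and 3.70 CPM in LPS and 14.8, 11.4 and 13.4 CPM in LPS + IL-10 libraries (log2 fold change 2.15, SE 0.21, adjusted p 2.1e-14), whereas IL-10 alone left it at 2.06, 2.97 and 1.83 CPM. Saa1 stood at 2.21, 2.15 and 2.21 CPM in LPS and 7.52, 6.43 and 8.68 CPM in LPS + IL-10 libraries (log2 fold change 1.79, SE 0.22, adjusted p 2.3e-10), and Hp, which encodes the haemoglobin-binding protein haptoglobin, at 3.17, 4.30 and 3.34 CPM and 14.02, 11.1 and 10.7 CPM in the same groups (log2 fold change 1.73, SE 0.18, adjusted p 3.5e-13). At all 3 genes every LPS + IL-10 library exceeded every library of the other 5 groups. Their peaks hold the 5′-most start, and the C/EBP letters printed above lie in those of Saa3 and Saa1. The Ctsa peak, which had fallen with LPS, stood at 16.1, 18.7 and 19.8 CPM with LPS + IL-10 (1.69 over LPS), among its unstimulated values, and at 30.9, 34.03 and 38.2 CPM with IL-10 alone. Plac1l rose by 1.68 on the log2 scale.

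The largest falls among the qualifying peaks were at Serpina3g (-1.91), Tmem27 (-1.88), Tnfaip2, Schip1 (-1.69) at a start 530793 bases into the gene, and Sbds (-1.61), a ribosome maturation gene. The Tnfaip2 peak stood at 11.5, 10.2 and 9.37 CPM with LPS + IL-10 (log2 fold change -1.76, SE 0.15, adjusted p 1.8e-16), so that JQ1 and IL-10 were on opposite sides of LPS there. Serpina3g stood at 5.88, 5.84 and 6.75 CPM in LPS, 1.54, 1.75 and 2.29 CPM in LPS + JQ1 and 1.57, 1.62 and 1.70 CPM in LPS + IL-10 libraries, with neither treated group overlapping the LPS group. Vcam1 (-1.36) overlapped its unstimulated values, at 4.62, 3.65 and 2.99 CPM against 2.74, 3.52 and 4.38 CPM.

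By list, LPS + IL-10 lowered 18 of the 51 interferon-stimulated peaks (background 4.51%) and raised 2 (background 4.26%). Their median was -0.42, against -0.01 over all peaks tested. The largest differences were at Gbp10 (-1.45), Iigp1 (-1.34), Ly6c2, a surface antigen of inflammatory monocytes (0.95), Gbp5, a guanylate-binding GTPase (-0.90), Tgtp1, an immunity-related GTPase (-0.90, 1282 bases in) and Rsad2, the antiviral enzyme viperin (-0.86, 1610 bases in). Among cytokines and chemokines LPS + IL-10 lowered 11 of 33 and raised 3 (median -0.31), with Cxcl11 (-1.28, 2208 bases in), Ccl5 (-1.26), Ccl22 (-1.24), Il19, a cytokine of the IL-10 family (1.23), Csf1 (-1.15, 9728 bases in) and Il6, interleukin-6 (-1.13). Effector and secreted protein genes had 16 higher and 2 lower of 55, with Saa3 (2.15), Saa1 (1.79), Hp (1.73), Cp, the copper carrier ceruloplasmin (1.39, 24949 bases in), Chi3l1 (1.34) and Cp (1.18, 32098 bases in).

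With LPS + IL-10 against LPS, 4.26% of all peaks tested were higher and 4.51% lower. Pattern recognition genes had 4 higher and 1 lower of 37, at Trem3 (1.35), Trem1 (1.06), Tlr9, a sensor of CpG DNA (-0.62), Fpr1 (0.6) and Tyrobp, the adaptor DAP12 (0.51). Cytokine receptor and signalling genes had 3 higher and 2 lower of 39, at Tnfaip2 (-1.76, 8050 bases in), Csf3r (1.36, 13534 bases in), Il18rap, a chain of the IL-18 receptor (1.06), Stat4 (-0.72, 21096 bases in) and Csf3r (0.67). Adhesion and chemotactic receptor genes had 5 higher and 2 lower of 26, with Vcam1 (-1.36), Itgam, integrin αM (0.98, 53796 bases in), Cd69 (-0.78), Emr4 (0.57) and Mrc1, the mannose receptor (0.56). Immunoglobulin-like and Fc receptor genes had 6 higher and 2 lower of 37, with Fcgr2b (0.99, 14917 bases in), Sirpb1b (0.81), Sirpb1a (0.72), Mpeg1 (-0.71), Cd300e (0.64) and Lilrb3, an inhibitory receptor (0.56). No MHC class II peak was called, over log2 fold changes from -0.38 to 0.42, by edgeR or by DESeq2, and 1 was higher and 1 lower at an unadjusted p under 0.05 in edgeR.

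The response to LPS was then taken inside each treatment, LPS + JQ1 against JQ1 and LPS + IL-10 against IL-10, comparisons that share no library with LPS against unstimulated. LPS raised 458 CpG-poor promoter peaks in JQ1-treated cells (7.16%, background 5.69%) and lowered 271 (4.24%, background 3.58%), and in IL-10-treated cells raised 626 (9.79%, background 8.93%) and lowered 436 (6.82%, background 6.47%). Of the 896 peaks raised by LPS without treatment, 364 (40.6%) were also raised in JQ1-treated cells, which is 79.5% of the 458 raised there, and 379 (42.3%) in IL-10-treated cells, 60.5% of the 626. Of the 665 lowered, 138 (20.8%) were also lowered with JQ1 and 186 (27.97%) with IL-10, or 50.9% and 42.7% of those lowered there. The median log2 response of the 896 was 0.89 without treatment, 0.48 with JQ1 and 0.46 with IL-10, where a set picked for its rises in the first comparison tends to show smaller ones elsewhere. The sign was the same at 92.1% and 84.6% of the raised peaks and at 81.4% and 84.8% of the lowered ones.

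The interaction term tests whether the response to LPS differed with the treatment. A lower term is a smaller rise or a larger fall in treated cells. With JQ1 it was lower at 198 CpG-poor promoter peaks (3.10%, background 3.19%) and higher at 44 (0.688%, background 0.649%), and with IL-10 lower at 411 (6.43%, background 5.9%) and higher at 123 (1.92%, background 2.01%). At CpG-rich promoter peaks the term was lower at 2979 and 4001, so that these calls held far fewer CpG-poor than CpG-rich promoters. Tnfaip2 had interaction values of 0.80 with JQ1 and -1.52 with IL-10, on opposite sides. Il1b had -1.58 and -1.55 at its 5′-most start, and Saa3 1.6 with IL-10. These counts turned over with the scaling, with 188 higher and 55 lower for JQ1 under total-count scaling, 42 and 51 under loess offsets and 356 and 84 with scaling set by promoter-table peaks, and for IL-10 468 and 184, 136 and 170, and 634 and 221. Without the first unstimulated library they were 29 higher and 105 lower for JQ1 and 85 and 306 for IL-10. The promoter-table scaling also gave 583 higher and 172 lower for LPS in JQ1-treated cells and 804 and 296 in IL-10-treated cells.

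JQ1 and IL-10 without LPS gave calls whose direction depended on the scaling of the libraries. In the fit reported, JQ1 raised 633 CpG-poor promoter peaks (9.90%, background 7.85%) and lowered 182 (2.85%, background 3.15%). Scaling by total counts turned the split into 127 higher and 1018 lower, loess offsets into 81 higher and 113 lower, and scaling set by promoter-table peaks into 118 higher and 1297 lower. IL-10 raised 427 (6.68%, background 5.16%) and lowered 181 (2.83%, background 3.5%), which became 480 and 113 with DESeq2, 566 and 133 with offsets for GC content, 113 and 542 under total-count scaling, 92 and 101 under loess offsets, and 148 and 547 where promoter-table peaks set the scaling. At CpG-rich promoter peaks JQ1 raised 5196 and lowered 27 in the fit reported. Without the first unstimulated library, a setting added after the data were seen, the CpG-poor counts were 391 and 82 for JQ1 and 230 and 41 for IL-10.

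Among peaks that qualified for naming, those that moved most with JQ1 alone were Zfp937, a zinc finger gene (1.12), Ifi204, a PYHIN sensor of nucleic acids (1.10), and Rcbtb2 (1.07) upwards, and Atp11a, a phospholipid flippase gene (-1.14), Mical1, whose product oxidises actin (-1.12), and Fam3b (-1.05) downwards. Rcbtb2 stood at 14.9, 18.7 and 25.1 CPM in unstimulated and 38.9, 44.1 and 41.1 CPM in JQ1 libraries, with no overlap. With IL-10 alone the largest rises were at Zmynd8, a chromatin reader gene (1.44), Ctsc, the gene of cathepsin C (1.42), and Nrg1, an EGF-like growth factor gene (1.42), and the largest falls of qualifying peaks at Fam3b (-0.96), Ctbp2, a corepressor gene (-0.94), and a second Slco3a1 peak (-0.90). These falls were not the largest of all members, of which 71 were called below -1 on the log2 scale with JQ1 and 88 with IL-10. Over all 194230 peaks tested the counts below -1 were 3484 and 4684. The Ctsc peak, 18767 bases into the gene, stood at 3.21, 3.46 and 3.40 CPM in unstimulated, 10.03, 8.22 and 8.74 CPM in IL-10 and 19.7, 17.1 and 13.4 CPM in LPS + IL-10 libraries. The IL-10 libraries lay above the unstimulated ones without overlap, and LPS raised the same peak by 1.46 on the log2 scale. All of these 12 calls kept their direction under every alternative scaling tried. Some falls lost their call when a replicate was left out. These were Fam3b and Ctbp2 with IL-10 without replicate 1, and Fam3b with JQ1 and Slco3a1 with IL-10 without replicate 2.

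JQ1 alone raised 7.85% and lowered 3.15% of all peaks tested. By list, it gave 16 higher and 1 lower of 37 at pattern recognition peaks. At immunoglobulin-like and Fc receptor peaks it gave 13 higher and 1 lower of 37. At cytokine receptor peaks 12 were higher and 1 lower of 39, and at interferon-stimulated peaks 11 higher and 1 lower of 51. With scaling set by promoter-table peaks these splits were, in the same order, 3 and 3, 2 and 3, 2 and 8, and 4 and 8. IL-10 alone raised 5.16% and lowered 3.5% of all peaks tested. It gave 10 higher and 0 lower of 37 at pattern recognition peaks, and 8 higher and 0 lower of 26 at adhesion and chemotactic receptor peaks. At interferon-stimulated peaks it gave 7 higher and 1 lower of 51, which became 0 higher and 3 lower with total counts. No peak was lower with IL-10 alone in the pattern recognition and adhesion lists, where an unadjusted p under 0.05 in edgeR gave 0 and 0 and DESeq2 called 0 and 0. No total-count or promoter-table count is given for these lists with IL-10. Those scalings turned the IL-10 split of all CpG-poor promoter peaks towards falls, so the balance of these lists is not settled. C1qb, a chain of the complement component C1q named after its values were seen, stood at 23.2, 28.1 and 38.6 CPM in unstimulated, 56.9, 65.1 and 58.97 CPM in JQ1 and 49.9, 52.9 and 55.4 CPM in IL-10 libraries. Neither treated group overlapped the unstimulated one there, with log2 fold changes of 1.0 and 0.81.

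The letters of known motifs were counted from 250 bases before to 50 bases after one TSS of each peak, on both strands, and TATAAA on the sense strand from 40 to 20 bases before it. CpG-poor promoter peaks held the AP-1 letters (TGANTCA) in 10.9% of cases against 6.54% over all 17610 narrow TSS-holding promoter peaks, ISRE letters in 10.9% against 7.995%, PU.1 letters (GAGGAA, for the factor that sets macrophage identity) in 33.4% against 28.05%, C/EBP letters in 11.96% against 8.89%, κB letters in 7.27% against 7.65%, and TATAAA in 1.17% against 0.818%. These promoters have less G and C, which alone shifts such shares, and its part was not tested. The GAGGAA and GAAANNGAA letters can overlap each other.

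Among CpG-poor promoter peaks, ISRE letters lay in 19.4% of those LPS raised, 9.66% of those not called and 7.82% of those it lowered. The κB letters had 11.05%, 6.89% and 4.96%, and AP-1 letters 14.2%, 10.7% and 7.37%. With LPS + IL-10 against LPS, C/EBP letters lay in 22.3% of the raised, 11.5% of the uncalled and 11.1% of the lowered peaks, and ISRE letters in 10.97%, 10.2% and 21.6%. Within the highest quartile of level, called and uncalled peaks are closer in depth. There the C/EBP share was 26.2% in raised and 13.5% in uncalled peaks, and for LPS alone the ISRE share was 23.5% and 9.13%. A high C/EBP share was not confined to LPS + IL-10. In the same quartile it was 22.1% in the 95 peaks lowered by LPS, 14.9% in those raised and 12.97% in those uncalled. Over all levels these LPS shares were 12.6%, 14.2% and 11.5%. Peaks raised by JQ1 alone held PU.1 letters in 46.6% of cases against 32.1% of the uncalled, and 47.97% against 33.04% in the highest quartile. With IL-10 alone the shares were alike, 47.1% against 32.4%, and 46.96% against 35.9% in the highest quartile. The JQ1-raised peaks were stronger than the uncalled, with median levels of 17.9 and 2.97 CPM, and 19.5 and 11.7 CPM in the highest quartile. Their number fell from 633 to 81 under loess offsets. These shares are descriptions, without a test.

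**Figure D5:**
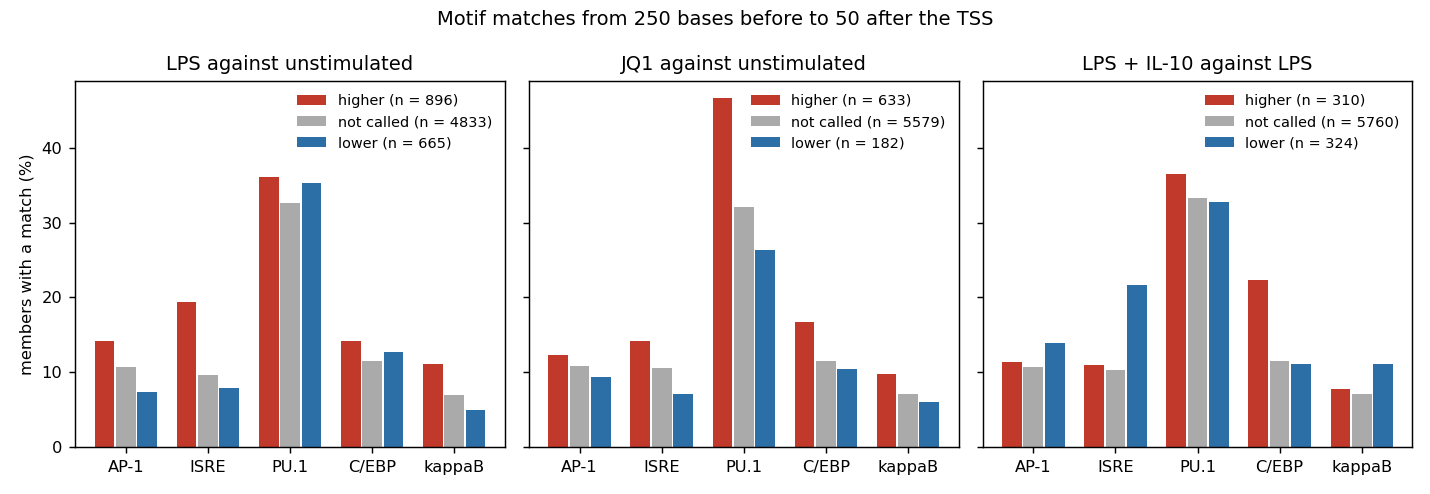
Percent of CpG-poor promoter peaks whose window around the TSS holds each set of motif letters, for peaks called higher (red), not called (grey) and called lower (blue) in 3 comparisons. ISRE letters are in 19.4% of peaks raised by LPS and 7.82% of those lowered, and C/EBP letters in 22.3% of those raised by LPS + IL-10 over LPS.

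Markers of the labelled cell type and of other cell types were looked up at CpG-poor promoter peaks. The macrophage list held 10 symbols, of which Emr1 and Adgre1 name the same gene. Of these symbols 6 had such a peak, 7 peaks in all, with mean levels from 6.77 to 28.6 CPM, well above the median member. Emr1, the gene of the F4/80 antigen, rose with LPS (0.86), while Itgam, the gene of CD11b, had a value of 0.09 at its 5′-most start and was not called. Of 6 neutrophil markers 2 had such peaks, Camp, an antimicrobial peptide gene that rose with LPS (1.72), from 4.35, 2.86 and 4.05 to 12.6, 11.2 and 13.1 CPM, and Elane, the neutrophil elastase gene, at 1.07, 0.440 and 0.877 CPM in unstimulated and 1.06, 1.05 and 0.657 CPM in LPS libraries. Of the other lists, 1 marker each of B cells (Cd79b, mean level 3.57 CPM), T cells (6.71 CPM), NK cells (Klrb1c, 11.3 CPM) and fibroblasts (Col1a1, 0.872 CPM) lay at a CpG-poor promoter peak, and no epithelial marker did. Klrb1c rose with LPS (0.85). A change in the share of other cells and a change in the accessibility of macrophages cannot be told apart in bulk libraries, and the part of other cells in these results was not tested.

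A further 19 CpG-poor promoter peaks lay at olfactory, vomeronasal, taste and trace amine receptor genes, a family of sensory receptors. LPS raised 2 (10.5%, background 11.7%) and lowered 3 (15.8%, background 10.2%) of them (median log2 fold change -0.19), LPS + JQ1 against LPS raised 0 (background 1.74%) and lowered 1 (5.26%, background 3.49%), and LPS + IL-10 against LPS raised 0 (background 4.26%) and lowered 4 (21.1%, background 4.51%). At an unadjusted p under 0.05 in edgeR, 0 were higher with LPS + JQ1 and 0 with LPS + IL-10, and DESeq2 called 0 and 0. Their mean levels ran from 0.745 to 15.1 CPM.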

How the data were processed

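ATAC-seq was measured in 18 libraries of macrophages, 3 in each of 6 groups. The authors aligned reads with Bowtie2 within PEPATAC to mm9, called peaks per library with MACS2, merged them and deposited raw counts per peak; ChIPseeker split the peaks into promoter (within 1000 bp upstream to 100 bp downstream of a TSS) and distal tables. The tool that counted reads is not given in the sources used here, and 6 columns that matched no sample were left out. Peak sequence came from mm9 and TSSs from GENCODE M1, and starts in the files were read as counted from 0. The members, the gene lists and the tests were chosen with earlier results of these data known. Both tables were fitted together with edgeR 4.0.16 (R 4.3.3; TMM scaling, quasi-likelihood test, 1 term per group, filterByExpr), with Benjamini-Hochberg adjustment over the 194230 peaks tested. A call needs an adjusted p under 0.05 and a log2 fold change beyond 0.5.

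Named members hold a TSS of a protein-coding gene (symbols of the Gm and Rik kind left out), were called, had a mean of at least 50 counts over the groups compared and moved the same way in all 3 same-numbered pairs. The largest were taken, 8 rises and 8 falls with LPS, 5 and 5 with each treatment added to LPS, and 3 and 3 with each treatment alone. In each gene list the called peaks were named, or the 6 largest. Some items that this rule names are not reported here. Other genes are said to be chosen after their values were seen; this also holds for members used as examples of marker lists. Library totals of 12020526 to 25908198 counts set the precision, and values are counts without molecular identifiers. The cells came from 3 mice, and the sources used here do not tie a replicate number to the same mouse in every group. Alternatives were DESeq2 1.42.0, total-count, median-of-ratios and promoter-table scaling, offsets for GC content and by loess (limma 3.58.1), the replicate block, the lane, leaving out a replicate, and other limits in the rule. The LPS response within each treatment and the fit without the first unstimulated library were added after the data were seen. The code was tested on simulated data.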

Additional observations from a re-analysis of the deposited data

Results flagged for a closer look

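The response to LPS differed between cells with and without JQ1 at 17 of the 39 named CpG-poor promoter peaks by the interaction term of edgeR's quasi-likelihood test, with an adjusted p under 0.05. Over all 194230 peaks tested the term was lower at 3.19% and higher at 0.649%, 7463 peaks in all. The 39 were picked for their large changes, so their share is not that of the class. The value in parentheses is the log2 difference of the response, treated minus untreated. It was negative, a smaller rise or larger fall with JQ1, at Il1b at chr2:129192232-129193242 (-1.73), Ifi205 (-0.92), Serpina3f (-0.94), Gbp6 (-0.93), Ifi204 (-1.21), Apobr (-1.35), Tmem27 (-1.64), Serpina3g (-1.45), Schip1 (-1.59) and Sbds (-1.24). It was positive at Stard9 (1.08), Srpk3 (0.98), Pnpla7 at chr2:24907405-24909148 (1.01), Pdxdc1 (1.03), Mef2d (1.12), Mical1 (1.72) and Tnfaip2 (0.8).

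The response to LPS differed between cells with and without IL-10 at 21 of the 39 named CpG-poor promoter peaks by the interaction term of edgeR's quasi-likelihood test, with an adjusted p under 0.05. Over all 194230 peaks tested the term was lower at 5.9% and higher at 2.01%, 15361 peaks in all. The value in parentheses is the log2 difference of the response, treated minus untreated. It was negative, a smaller rise or larger fall with IL-10, at Ccl5 (-1.17), Ifi205 (-0.78), Serpina3f (-1.26), Isg15 (-0.92), Ifi204 (-1.0), Zmynd8 (-1.04), Nrg1 (-0.96), Tnfaip2 (-1.52), Apobr (-1.18), Tmem27 (-1.7), Serpina3g (-1.62) and Sbds (-1.43). It was positive at Ctsa (0.75), Nt5dc2 (1.1), Pdxdc1 (0.82), Atp11a (1.08), Ctbp2 (1.17), Saa3 (1.6), Saa1 (1.06), Hp (1.55) and Plac1l (1.08).

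Many of these peaks were named for a comparison that shares its LPS and unstimulated libraries with the interaction, so that the terms are not independent of the choice. The interaction values at single peaks are from the fit reported, and no alternative is given for them. Over the class, 44 higher and 198 lower with JQ1 became 188 and 55 with total-count scaling, and 1 and 7 without replicate 2. With IL-10, 123 higher and 411 lower became 468 and 184, and 26 and 68.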

How the results depend on the processing

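Of 324 counts of called CpG-poor promoter peaks recomputed under the alternatives, 260 stayed within 1.5 times the value reported, and 64 moved further. Scaling by total counts gave 532 higher and 1394 lower for LPS against unstimulated, 127 higher and 1018 lower for JQ1 against unstimulated, 113 higher and 542 lower for IL-10 against unstimulated, 188 higher and 55 lower for interaction of LPS and JQ1 and 468 higher and 184 lower for interaction of LPS and IL-10. Scaling set by promoter-table peaks gave 1196 lower for LPS against unstimulated, 118 higher and 1297 lower for JQ1 against unstimulated, 148 higher and 547 lower for IL-10 against unstimulated, 172 lower for LPS + JQ1 against JQ1, 356 higher and 84 lower for interaction of LPS and JQ1 and 634 higher and 221 lower for interaction of LPS and IL-10. Loess offsets by peak strength gave 81 higher and 113 lower for JQ1 against unstimulated, 92 higher and 101 lower for IL-10 against unstimulated, 51 lower for interaction of LPS and JQ1 and 170 lower for interaction of LPS and IL-10. DESeq2 gave 119 lower for JQ1 against unstimulated, 113 lower for IL-10 against unstimulated and 328 lower for interaction of LPS and JQ1. Leaving out 1 replicate number, or the first unstimulated library alone, gave 668 to 965 higher and 356 to 565 lower for LPS against unstimulated, 197 to 820 higher and 34 to 193 lower for JQ1 against unstimulated, 88 to 697 higher and 21 to 141 lower for IL-10 against unstimulated, 36 to 182 higher and 120 to 262 lower for LPS + JQ1 against LPS, 162 to 327 higher and 170 to 337 lower for LPS + IL-10 against LPS, 327 to 475 higher and 143 to 282 lower for LPS + JQ1 against JQ1, 459 to 641 higher and 252 to 456 lower for LPS + IL-10 against IL-10, 1 to 50 higher and 7 to 309 lower for interaction of LPS and JQ1 and 26 to 85 higher and 68 to 414 lower for interaction of LPS and IL-10. The replicate block, with the replicate number as a term, gave 899 higher and 657 lower for LPS, and it moved no count by over 1.5 times. Deviations from the group means correlated with a mean r of 0.0057 between same-numbered libraries and -0.0029 between others, and 9 of 18 libraries correlated best with their own number. With 3 libraries per group these values cannot tell shared mice from separate ones, so whether the numbers mark mice stays unknown. The lane as a covariate and offsets for GC content also moved no count by over 1.5 times. Of 48 results at named members, 43 kept their call under every alternative and none changed sign. The calls lost were Fam3b and Ctbp2 with IL-10 alone and Stard9 with LPS + JQ1 without replicate 1, and Fam3b with JQ1 alone, Slco3a1 with IL-10 alone and Stard9 with LPS + JQ1 without replicate 2. The cause was not tested. The rule itself would take 5479 peaks with a ratio limit of 0.3 and 7185 with 0.4, 5587 with the ratio of 500 bp around the TSS, and 5168 with protein-coding TSSs only. The median level was 3.42 CPM. In simulated counts 200 members were changed by 1 on the log2 scale with LPS. The fit used here recovered 101 (50.5%), with 3 false calls. With a GC bias added to the simulated unstimulated libraries, the same fit recovered 145 with 4372 false calls, and offsets for GC content 105 with 1. Whether the real libraries hold such a bias was not tested. Only 200 of the 193428 simulated peaks tested were changed, while edgeR gave 49099 of 194230 real ones an adjusted p under 0.05 with LPS. That makes the adjusted cutoff stricter, so the share recovered is not the power of the fit reported. A change of this size, or a smaller one, could be missed at a member, but how often was not measured.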

Other observations

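CpG-poor promoter peaks without a protein-coding TSS had 176 of 1228 higher (14.3%) and 121 lower (9.85%) with LPS by edgeR, where 11.7% and 10.2% of all peaks tested were. With LPS + JQ1 against LPS 35 were higher (2.85%, background 1.74%) and 50 lower (4.07%, background 3.49%). With LPS + IL-10 against LPS 64 were higher (5.21%, background 4.26%) and 58 lower (4.72%, background 4.51%). Of the 105 that held a microRNA start and no protein-coding TSS, LPS raised 9 (8.57%) and lowered 6 (5.71%). These differences in share were not tested. The peaks that follow were chosen after their values were seen. The locus of Mir155, a microRNA induced in activated macrophages, had a pair of adjoining peaks. The one at the start of the host lincRNA (chr16:84712952-84713960, mm9) stood at 2.34, 2.03 and 1.70 CPM in unstimulated and 21.9, 21.7 and 19.9 CPM in LPS libraries, with no overlap (log2 fold change 3.39). LPS + IL-10 libraries stood at 15.2, 10.2 and 10.01 CPM (-0.84 against LPS), and LPS + JQ1 libraries at 21.1, 12.4 and 13.6 CPM (-0.45, not called). The one at the microRNA start had log2 fold changes of 2.67 with LPS, -1.02 with LPS + IL-10 against LPS, and -0.56, not called, with LPS + JQ1 against LPS. Mir221 rose with LPS by 1.52 on the log2 scale. Mir22 rose by 1.05, from 4.75, 7.09 and 7.51 to 14.4, 14.2 and 11.8 CPM, and was higher again with LPS + JQ1, at 22.2, 17.03 and 23.5 CPM (0.63 against LPS). The accessibility of a start does not give the level of the microRNA, which was not measured here.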
